A study of Mus musculus with 6 samples.

Results

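The opioid, somatostatin and neuropeptide Y (NPY) receptors are G protein-coupled receptors through which peptides released by neurons, mostly inhibitory interneurons in the cortex, act on nearby cells. The 10 receptor genes *Oprd1*, *Oprk1*, *Oprl1*, *Oprm1*, *Sstr1*, *Sstr2*, *Sstr3*, *Sstr4*, *Npy1r* and *Npy2r* were taken by symbol from the 21667 named genes of an RNA-seq experiment on mouse somatosensory cortex, and all 10 were measured. The experiment compared 3 control mice (Mef2c fl/fl, negative for Cre) with 3 *Mef2c* cKO mice (Mef2c fl/fl; Emx1-Cre). All mice were males on a mixed SVeV-129 and C57BL/6J background, and in each genotype replicate 1 was 14 weeks old and the others 12 weeks old. Both genotypes carry the floxed *Mef2c* alleles. Emx1-Cre is active from the embryo in the forebrain lineage that gives the excitatory neurons and part of the glia, and not in the lineage of the cortical interneurons, while the RNA came from whole pieces of dissected cortex.

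These receptors act mainly through inhibitory G proteins. When a peptide binds, the alpha subunit slows adenylyl cyclase, and the beta and gamma subunits open G protein-gated potassium (GIRK) channels and restrain calcium channels, so that the cell becomes less excitable or releases less transmitter. *Penk*, *Pdyn* and *Pomc* encode the precursors of the opioid peptides, *Pnoc* that of nociceptin, *Sst* and *Cort* those of somatostatin and cortistatin, and *Npy* that of NPY.

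Of the 10 receptors, 4 rose in *Mef2c* cKO cortex, none fell and 6 did not pass the test. The opioid receptors *Oprd1* and *Oprk1* and the somatostatin receptors *Sstr1* and *Sstr3* were the 4 that rose, by 1.43-fold to 2.03-fold in mean level. The test was limma, a linear model fitted across all tested genes with the spread shared between genes of like level. To pass, a gene needed a p-value under 0.05 after Benjamini-Hochberg adjustment and a log2 fold change above 0.3 or under -0.3. Over all 14625 genes tested, 13.7% passed in either direction, 5.88% as higher and 7.77% as lower. The median log2 fold change of the receptors was 0.32, against 0.008 over all tested genes. Levels are given as CPM, the reads of a gene per 1000000 reads of the mouse, and all 10 receptors were high enough to be tested, with 52 to 3637 reads in a mouse. In the tissue as a whole, fewer cells of a type and less RNA per cell cannot be told apart, and neither can more cells and more RNA.

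**Figure D1:**
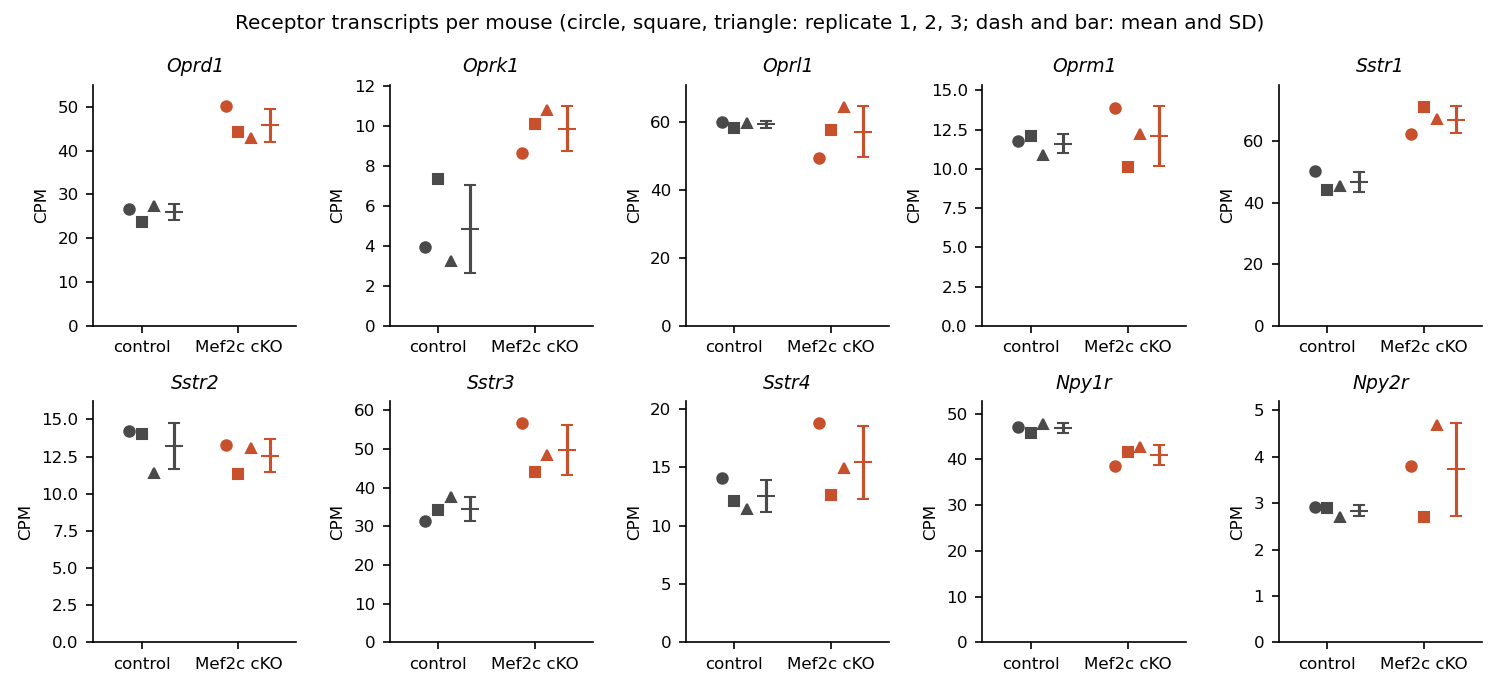
CPM of the 10 receptor genes in each of the 3 control and 3 *Mef2c* cKO mice, with the mean and SD of each genotype beside the points and axes that start at 0. In *Oprd1*, *Oprk1*, *Sstr1* and *Sstr3* all 3 *Mef2c* cKO mice lie above all 3 control mice, and in *Npy1r* all 3 lie below.

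The libraries held 19326365 to 54128334 reads, with the smallest and the largest both in the *Mef2c* cKO group. The pyramidal neuron genes *Slc17a7* (1137 to 1289 CPM over the 6 mice) and *Camk2a* (2965 to 3940 CPM) were high in every mouse, as the label of cortex implies. The targeted gene *Mef2c*, read over the whole gene, was at 800, 772 and 800 CPM in control replicates 1, 2 and 3 and at 1231, 1276 and 1468 CPM in the *Mef2c* cKO replicates, so it was higher in the cKO. These reads were not split by exon, and reads outside the floxed part do not check the deletion. Among lists of markers, the summed level lay lower in all 3 *Mef2c* cKO mice for microglia (172 to 181 against 187 to 207 CPM) and for thalamus (57.4 to 63.8 against 70.9 to 80.5 CPM), and the genotypes overlapped in the lists of pyramidal neurons, interneurons, astrocytes, oligodendrocytes, vessels, striatum, hippocampus, claustrum with layer 6b, and choroid plexus with blood. Of the 6 thalamus markers, 3 were lower in the cKO and 1, *Prkcd*, was higher (7.99 to 10.1 CPM in the controls, 10.3 to 14.5 CPM in the cKO). Among the lower ones was *Slc17a6* (28.1 to 38.8 against 18.3 to 26.4 CPM), which is also in the pyramidal neuron list. The part of the listed cells and tissues in the results below was not tested.

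The upstream sequences of *Oprd1* and *Sstr3*, receptors that rose, are shown with that of *Sst*, the ligand gene of *Sstr3*. They lie just before a transcript start of these genes. Each line gives the 250 bases before a RefSeq transcript start, for *Sstr3* the first of 2 listed (RefSeq table of build GRCm38.p6), 5′ to 3′ on the strand of the gene, and the capitals mark the motifs found. The sequence of *Oprd1* lies at chr4:131700402-131700651, that of *Sstr3* at chr15:78374776-78375025 and that of *Sst* at chr16:23890931-23891180, all on the minus strand. All were placed by an exact match to the build NCBIM37 (mm9).
Oprd1: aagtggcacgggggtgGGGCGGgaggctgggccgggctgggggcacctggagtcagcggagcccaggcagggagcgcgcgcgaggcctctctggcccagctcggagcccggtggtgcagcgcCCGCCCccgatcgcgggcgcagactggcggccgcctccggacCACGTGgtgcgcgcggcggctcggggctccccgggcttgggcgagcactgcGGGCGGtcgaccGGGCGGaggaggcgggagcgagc
Sstr3: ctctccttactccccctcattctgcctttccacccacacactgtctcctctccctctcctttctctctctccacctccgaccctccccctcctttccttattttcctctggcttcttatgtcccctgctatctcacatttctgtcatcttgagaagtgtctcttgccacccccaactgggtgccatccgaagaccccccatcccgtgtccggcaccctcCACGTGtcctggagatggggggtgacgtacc
Sst: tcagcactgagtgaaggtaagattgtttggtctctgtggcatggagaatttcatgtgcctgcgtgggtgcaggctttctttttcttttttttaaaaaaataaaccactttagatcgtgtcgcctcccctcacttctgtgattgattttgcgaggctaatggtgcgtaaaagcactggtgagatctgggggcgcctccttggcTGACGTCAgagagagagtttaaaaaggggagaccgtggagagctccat

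The search used 5 motifs on both strands, chosen with these sequences in view: the MEF2 site (CTA, any 4 bases, TAG), the cAMP response element TGACGTCA, the AP-1 site TGANTCA, the E-box CACGTG and the GC box GGGCGG. No motif overlapped another in the 3 sequences. The MEF2 letters were in none of the 13 upstream sequences listed for 8 of the receptors and in 3.20% of all 32851 listed sequences, so these letters are not in these windows. The *Oprd1* sequence, 80% G and C against a median of 52.4% over all listed sequences, holds 4 GC boxes and 1 E-box, and the *Sstr3* sequence shown holds 1 E-box. A second upstream sequence listed for *Sstr3*, at chr15:78371837-78372086, holds none of the motifs. An E-box of these letters is in 6.02% of all listed sequences and a GC box in 32.7%. The cAMP response element of *Sst*, 48 bases before the start, is of the kind through which cAMP is known to drive this gene, and its letters are in 1.55% of all listed sequences, among the receptors in that of *Sstr2*. *Oprk1* and *Sstr1* have no entry.

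The delta opioid receptor gene *Oprd1*, whose product binds enkephalins, lies at chr4:131666641-131700401 on the minus strand (NCBIM37). It measured 26.8, 23.8 and 27.4 CPM in control replicates 1, 2 and 3 and 50.1, 44.3 and 43.0 CPM in *Mef2c* cKO replicates 1, 2 and 3. Every cKO mouse was above every control mouse, by far more than the spread within either genotype. *Oprd1* rose from 26.0 ± 1.92 to 45.8 ± 3.80 CPM (SD, n = 3 each), a 1.76-fold change in mean, with a log2 fold change of 0.81 ± 0.09 (SE, limma adjusted p = 2.3e-04). It passed in all 16 alternative fits of the recovered reads, with log2 fold changes of 0.75 to 0.86.

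The kappa opioid receptor gene *Oprk1*, whose product binds dynorphins and which in cortex is known from deep layers and the claustrum, lies at chr1:5578574-5596212 on the plus strand. It measured 3.94, 7.33 and 3.26 CPM in the controls and 8.61, 10.1 and 10.8 CPM in the *Mef2c* cKO mice. Control replicate 2 stood apart from the other 2 controls and near the lowest cKO mouse, yet the genotypes did not overlap. *Oprk1* rose by 1.09 ± 0.26 on the log2 scale (SE, n = 3 each, limma adjusted p = 0.019), the largest fold change among the receptors and the one with the widest error. The call was lost, with limma adjusted p-values of 0.068, 0.057, 0.055 and 0.060, when control replicate 1, control replicate 3, *Mef2c* cKO replicate 2 or *Mef2c* cKO replicate 3 was left out. Without control replicate 2 the log2 fold change was 1.43 (limma adjusted p = 9.4e-04).

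The claustrum and layer 6b markers were read beside *Oprk1*. Their summed level was 217, 294 and 203 CPM in the controls and 295, 211 and 279 CPM in the *Mef2c* cKO mice, so control replicate 2 was the highest control in this list too, and *Mef2c* cKO replicate 2, with 10.1 CPM of *Oprk1*, was the lowest cKO mouse. Of the 7 markers, *Nxph4* and *Ntng2* were higher in the cKO, *Synpr* was lower and 4 did not pass. *Ntng2* was at 33.7, 57.6 and 43.7 CPM in the controls and 83.3, 77.0 and 79.7 CPM in the cKO mice. The part of these cells in the *Oprk1* values was not tested.

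The nociceptin receptor gene *Oprl1* and the mu opioid receptor gene *Oprm1*, whose product binds enkephalins and endorphin and is the target of morphine, did not pass. *Oprl1* measured 60, 58.2 and 59.7 CPM in the controls and 49.4, 57.5 and 64.3 CPM in the *Mef2c* cKO mice. The cKO mice lay on both sides of the narrow control range, and the log2 fold change was -0.06 with a 95% interval of -0.27 to 0.14 (limma adjusted p = 0.70). *Oprm1* measured 11.8, 12.1 and 10.9 CPM in the controls and 13.9, 10.1 and 12.2 CPM in the cKO mice. Here too the genotypes overlapped, with a log2 fold change of 0.04 and an interval of -0.23 to 0.32 (limma adjusted p = 0.86). *Oprm1* shares 96 of its 8156 annotated exon bases with *Ipcef1* on the other strand, and whether the counting used the strand is not given in the sources used here.

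The somatostatin receptor gene *Sstr1* lies at chr12:59312759-59315431 on the plus strand. It measured 50.5, 44.3 and 45.6 CPM in the controls and 62.5, 71.2 and 67.2 CPM in the *Mef2c* cKO mice. All 3 cKO mice were above all 3 controls, and the gap between the genotypes was wider than the range within each. *Sstr1* rose from 46.8 ± 3.25 to 67.0 ± 4.35 CPM (SD, n = 3 each), 1.43-fold, with a log2 fold change of 0.52 ± 0.08 (SE, limma adjusted p = 0.0014).

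The gene *Sstr3*, whose product is known for its place in the primary cilium of neurons, lies at chr15:78367445-78374775 on the minus strand. It measured 31.4, 34.1 and 37.6 CPM in the controls and 56.7, 43.9 and 48.4 CPM in the *Mef2c* cKO mice. Replicate 1 had the lowest level among the controls and the highest among the cKO mice, and the genotypes did not overlap. *Sstr3* rose from 34.3 ± 3.08 to 49.7 ± 6.5 CPM (SD, n = 3 each), with a log2 fold change of 0.53 ± 0.10 (SE, limma adjusted p = 0.0076). *Sstr1* and *Sstr3* passed in all 16 alternative fits of the recovered reads, with log2 fold changes of 0.47 to 0.57 and of 0.43 to 0.61.

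*Sstr2* and *Sstr4*, the other two somatostatin receptors among the members, did not pass. *Sstr2* measured 14.2, 14.0 and 11.4 CPM in the controls and 13.3, 11.3 and 13.1 CPM in the *Mef2c* cKO mice, ranges that lay almost on each other. Its log2 fold change was -0.06 with a 95% interval of -0.33 to 0.20 (limma adjusted p = 0.78). *Sstr4* measured 14.1, 12.1 and 11.4 CPM in the controls and 18.8, 12.6 and 14.9 CPM in the cKO mice. Only *Mef2c* cKO replicate 2 fell inside the control range, and the log2 fold change was 0.28 with an interval of -0.05 to 0.62 (limma adjusted p = 0.25). That interval holds both no change and the size seen in *Sstr1* and *Sstr3*, and the receptors were not tested against each other. *Sstr5*, the remaining receptor of the family, had 1 to 20 reads per mouse and was not tested.

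**Figure D2:**
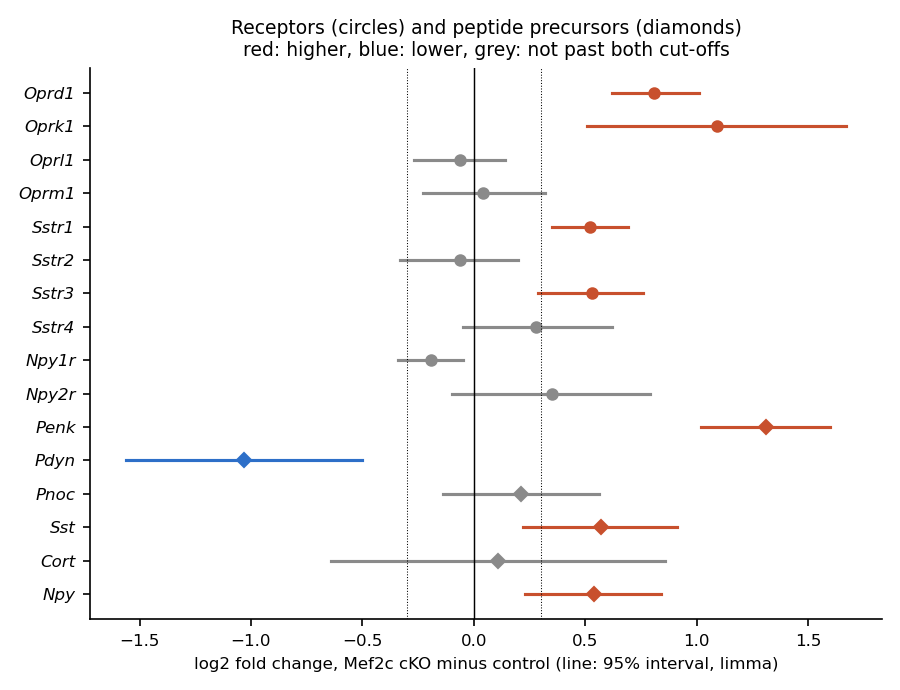
Log2 fold change (*Mef2c* cKO minus control) of the 10 receptors and the 6 tested peptide precursor genes, with the 95% interval from limma as a line and the cut-off of 0.3 in both directions as dotted lines. The intervals of *Oprd1*, *Oprk1*, *Sstr1*, *Sstr3*, *Penk*, *Sst* and *Npy* lie above 0, those of *Pdyn* and *Npy1r* lie below, and *Npy1r* did not pass the test.

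The NPY receptor genes showed no call in either direction. *Npy1r*, the gene of the Y1 receptor, which is mainly postsynaptic, measured 47.2, 45.7 and 47.8 CPM in the controls and 38.5, 41.7 and 42.8 CPM in the *Mef2c* cKO mice. The genotypes did not overlap, as was so with lower cKO levels in 17.5% of all tested genes, and the difference was small. The log2 fold change was -0.19 with a 95% interval of -0.34 to -0.05 (limma adjusted p = 0.081). The gap was wider than the range of the controls and narrower than that of the cKO mice. In all 16 alternative fits as well, the limma adjusted p (0.062 to 0.22) and the log2 fold change (-0.23 to -0.15) both missed their thresholds.

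*Npy2r*, the gene of the Y2 receptor, known as a presynaptic receptor, had the fewest reads among the members, 52 to 254 per mouse. It measured 2.91, 2.9 and 2.7 CPM in the controls and 3.79, 2.69 and 4.69 CPM in the *Mef2c* cKO mice. *Mef2c* cKO replicate 2, the shallowest library, was at the control level and the other two were above it. The log2 fold change was 0.35 with a 95% interval of -0.10 to 0.79 (limma adjusted p = 0.29). *Npy5r*, a receptor of the same family outside the members, was at 4.33 to 6.70 CPM in the controls and 4.46 to 6.31 CPM in the cKO mice (log2 fold change 0.05, limma adjusted p = 0.91), and *Npy4r* and *Npy6r* were at 0 reads in all 6 mice.

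The genotypes did not overlap in 5 of the 10 receptors, against 33.8% of all tested genes. The cKO mice were above the controls in 4 of them, the same 4 that passed the test (16.3% of all tested genes), and below in *Npy1r*.

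To compare levels between receptors, CPM was divided by the annotated exon length in kilobases, from 2046 bases for *Sstr1* to 8156 bases in 23 exon blocks for *Oprm1*, whose many annotated splice forms lower its value on this scale. In the controls *Sstr1* led with 22.9 ± 1.59 CPM per kb (SD, n = 3). *Oprl1* (15.8 ± 0.251) and *Npy1r* (15.6 ± 0.363) followed and overlapped each other. *Sstr3* stood alone at 8.74 ± 0.783 CPM per kb. *Oprd1* (6.47 ± 0.478), *Sstr2* (6.31 ± 0.753) and *Sstr4* (5.71 ± 0.638) formed a further overlapping run, and *Oprm1* (1.42 ± 0.0807), *Npy2r* (0.842 ± 0.0354) and *Oprk1* (0.708 ± 0.319) were the lowest, with an overlap between the last pair.

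The order of the 5 highest receptors was the same in *Mef2c* cKO cortex, but the distances between them differed. *Sstr1* stood at 32.7 ± 2.12 CPM per kb, again above every other receptor. *Npy1r* (13.6 ± 0.731), *Sstr3* (12.7 ± 1.66) and *Oprd1* (11.4 ± 0.946) now overlapped from each to the next, where the controls had shown *Npy1r* clear of *Sstr3* and *Sstr3* clear of *Oprd1*. *Oprd1* no longer overlapped *Sstr2* or *Sstr4*. *Oprk1* (1.44 ± 0.164 CPM per kb) reached the level of *Oprm1* (1.48 ± 0.229). These are levels of transcripts in the tissue, described without a test between genes.

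**Figure D3:**
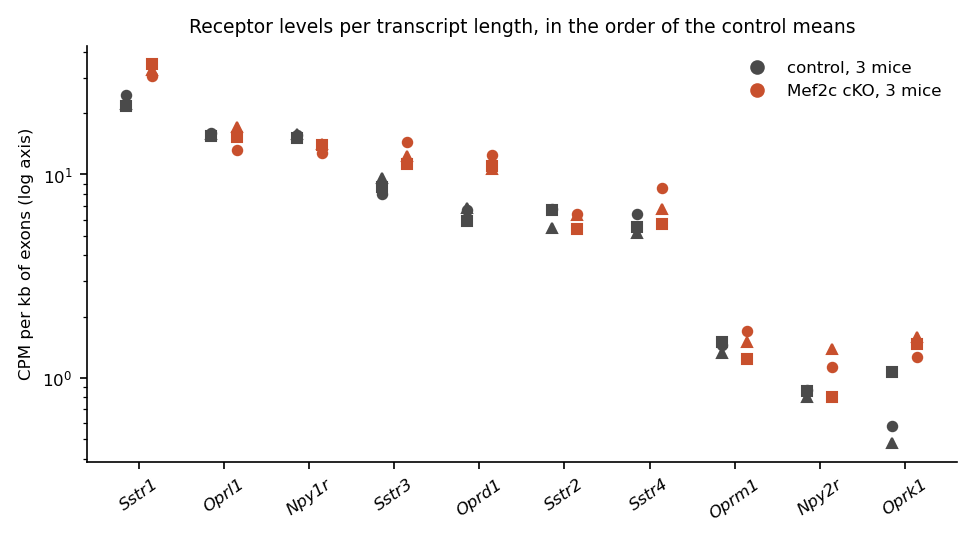
CPM per kilobase of annotated exon for the 10 receptors on a log axis, each point a mouse, in the order of the control means. *Sstr1* is highest in both genotypes. The *Mef2c* cKO points of *Sstr3* (11.2 to 14.4 CPM per kb) overlap those of *Npy1r* (12.8 to 14.2 CPM per kb), and those of *Oprd1* (10.7 to 12.5 CPM per kb) lie just below *Npy1r*.

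The make-up of the opioid receptor transcripts followed from these levels. *Oprd1* made up 27.0%, 24.7% and 27.8% of the CPM per kb of the 4 opioid receptor genes in the controls and 43.6%, 37.9% and 34.6% in the *Mef2c* cKO mice. *Oprl1*, the most abundant of the 4, made up 64.6% to 64.9% in the controls and 46.0% to 55.5% in the cKO mice. Neither share overlapped between the genotypes, while those of *Oprm1* and *Oprk1* did. A share falls when another member rises, and the *Oprl1* level itself did not pass the test.

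Among the 4 somatostatin receptors, *Sstr1* made up 50.9% to 53.8% of the CPM per kb in the controls and 51.0% to 60.9% in the cKO mice, and *Sstr3* 17.4% to 22.5% and 19.6% to 24.1%. Both shares overlapped between the genotypes although both levels rose. The *Sstr2* share was 12.8% to 15.7% in the controls and 9.45% to 10.8% in the cKO mice, with no overlap.

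**Figure D4:**
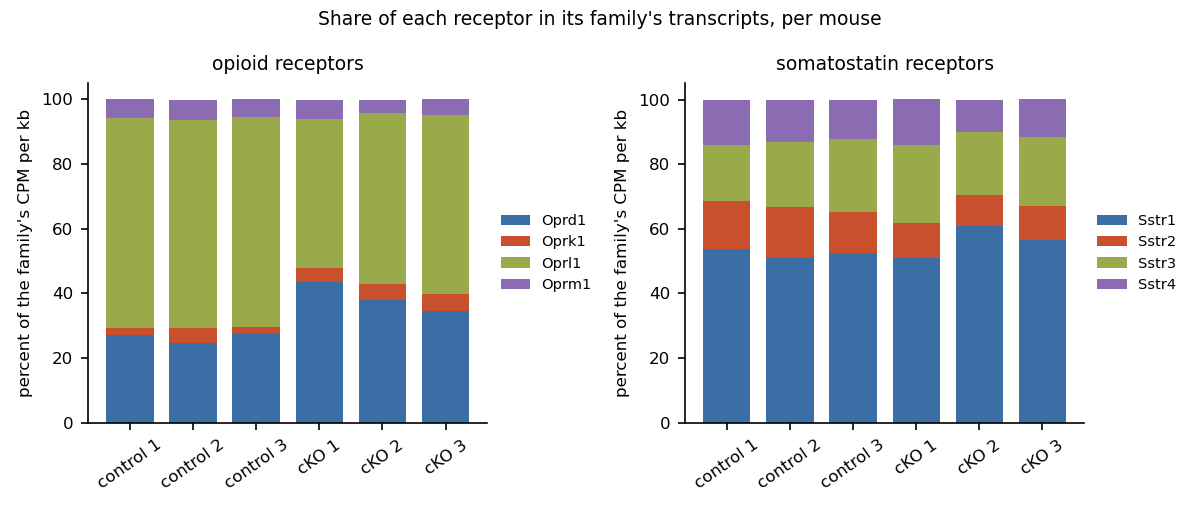
Percent of the CPM per kb of the 4 opioid (left) and 4 somatostatin (right) receptor genes that each receptor took in each mouse, as stacked bars. *Oprd1* takes 24.7% to 27.8% in the controls and 34.6% to 43.6% in the *Mef2c* cKO mice, while *Sstr1* takes 50.9% or more in all 6.

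The ligands of these receptors moved in both directions. *Penk*, the enkephalin precursor gene and so the source of the main peptides for the product of *Oprd1*, measured 40.0, 50.1 and 34.1 CPM in the controls and 105, 92.0 and 108 CPM in the *Mef2c* cKO mice. It rose 2.46-fold, with a log2 fold change of 1.31 ± 0.13 (SE, n = 3 each, limma adjusted p = 1.5e-04), and every cKO mouse was far above every control. *Penk* is also abundant in the striatum, which lies below the cortex. The summed level of 8 striatal markers was 164, 212 and 152 CPM in the controls and 305, 113 and 264 CPM in the cKO mice, and *Mef2c* cKO replicate 2, the lowest of all 6 in this list, had 92.0 CPM of *Penk*. The part of striatal tissue in the *Penk* values was not tested. *Penk* shares 233 exon bases with the lincRNA *A830012C17Rik* on the other strand.

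*Pdyn*, the dynorphin precursor gene and so the source of the peptides for the product of *Oprk1*, went the other way. It measured 9.0, 9.6 and 8.48 CPM in the controls and 5.71, 2.79 and 5.17 CPM in the *Mef2c* cKO mice, with no overlap. *Pdyn* fell by 1.03 on the log2 scale (SE 0.23, n = 3 each, limma adjusted p = 0.016), to 0.505 of the control mean. The lowest value was that of *Mef2c* cKO replicate 2, the mouse with the lowest striatal markers, and without it the log2 fold change was -0.72 and passed. Without control replicate 2 the limma adjusted p was 0.058.

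*Sst*, the somatostatin precursor gene, measured 110, 127 and 124 CPM in the controls and 233, 172 and 141 CPM in the *Mef2c* cKO mice. *Npy* measured 33.1, 36.2 and 39.1 CPM in the controls and 64.2, 52.9 and 42.4 CPM in the cKO mice. In both genes the cKO mice were all above the controls, replicate 1 was the highest and replicate 3 was close to the controls. *Sst* rose by 0.57 ± 0.15 on the log2 scale (SE, n = 3 each, limma adjusted p = 0.034). *Npy* rose by 0.54 ± 0.14 on the same scale (SE, n = 3 each, limma adjusted p = 0.025).

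Both calls lay near the threshold. That of *Sst* was lost when control replicate 1, 2 or 3 or *Mef2c* cKO replicate 2 was left out (limma adjusted p = 0.069 to 0.11), and that of *Npy* without control replicate 1 or 2 or *Mef2c* cKO replicate 1 or 2 (limma adjusted p = 0.057 to 0.085). Both are known from interneurons, and of 10 other interneuron markers none was higher and 1, *Pvalb*, was lower, with a summed level of 716 to 823 CPM in the controls and 686 to 730 CPM in the cKO mice. The nociceptin precursor gene *Pnoc* (2.93 to 4.15 against 3.94 to 4.40 CPM) and the cortistatin precursor gene *Cort* (0.823 to 0.931 against 0.591 to 1.74 CPM) did not pass. *Pomc* had 1 to 27 reads per mouse and was not tested, and *Pyy* and *Ppy* were at 0 in all 6 mice.

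**Figure D5:**
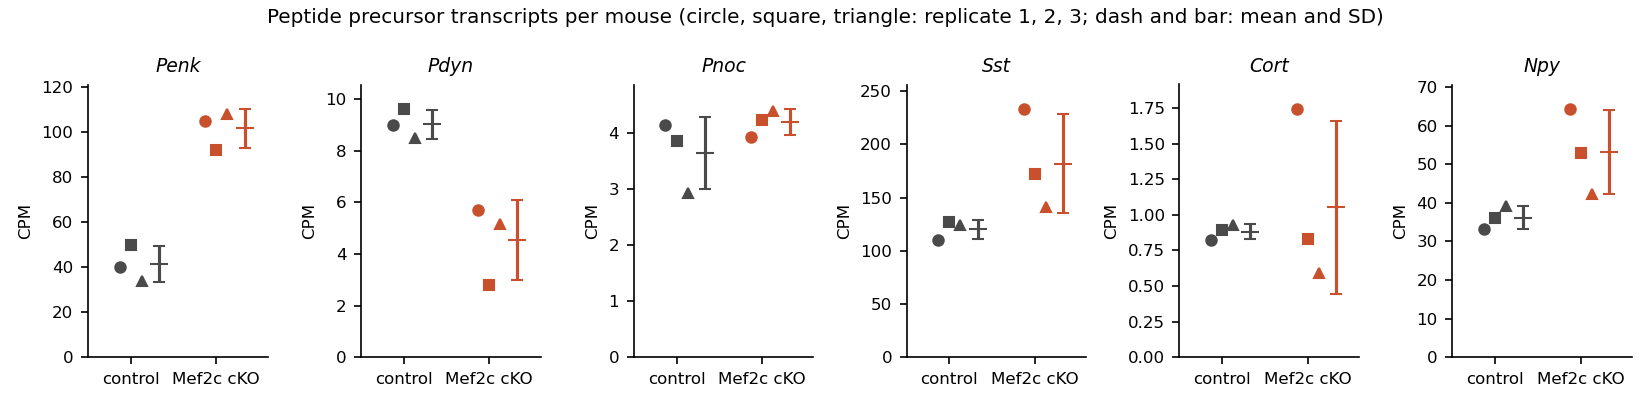
CPM of the 6 tested peptide precursor genes in each mouse, with the mean and SD of each genotype and axes that start at 0. All 3 *Mef2c* cKO mice lie above the controls in *Penk* (92.0 to 108 against 34.1 to 50.1 CPM), *Sst* and *Npy*, and below them in *Pdyn* (2.79 to 5.71 against 8.48 to 9.60 CPM).

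The genes through which the receptors act were read from the same fit, in which 13.7% of all tested genes passed in either direction. None of 5 inhibitory G protein alpha subunit genes and none of 13 tested beta and gamma subunit genes passed (median log2 fold changes 0.09 and -0.06). Of 3 tested GIRK channel genes, *Kcnj6* rose (98.4, 96.7 and 110 CPM in the controls, 144, 141 and 118 CPM in the cKO mice, limma adjusted p = 0.014) and *Kcnj9* fell (192, 220 and 188 against 152, 160 and 172 CPM, limma adjusted p = 0.022). Of 9 adenylyl cyclase genes 1 rose and 3 fell, with a median log2 fold change of 0.08. Their summed level was higher in every cKO mouse (2168 to 2329 against 2019 to 2149 CPM). *Adcy9* was the one that rose, by 0.50 on the log2 scale, while *Adcy7* fell by 0.90 and *Adcy8* by 0.52 (limma adjusted p = 0.0044 and 0.0098). Of 7 receptor kinase and arrestin genes only *Grk5* passed, which fell by 0.40 (limma adjusted p = 0.041). The summed level of these 7 genes was lower in every cKO mouse (788 to 824 against 840 to 849 CPM).

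Of 10 genes of peptide processing and degradation 2 rose and 2 fell, with a median log2 fold change of -0.24. *Cpe*, the carboxypeptidase that trims peptide precursors, was at 2626 to 2671 CPM in the controls and 3173 to 3606 CPM in the *Mef2c* cKO mice (log2 fold change 0.37, limma adjusted p = 0.0076). *Pam*, the enzyme that amidates peptides such as NPY, was at 233 to 243 CPM and 287 to 351 CPM (log2 fold change 0.38, limma adjusted p = 0.0091). *Ece2*, an endothelin-converting peptidase, was lower in the cKO mice (15.2 to 17.5 against 19.6 to 26.2 CPM, limma adjusted p = 0.026).

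The genes most like the leading receptors over the 6 mice were named by Pearson correlation of log2 CPM, among 14624 genes, as a description in which the points share the genotype. For *Oprd1* they included *Unc5a* and *Dgka* (r = 0.999 and 0.998). For *Oprk1*, *Anxa11*, *Rpusd2* and *Tmem59l* (r = 0.996, 0.995 and 0.994) shared the raised level in control replicate 2. For *Sstr3* they were *Fam65a*, *Rfx2* and *Map3k4* (r = 0.999, 0.998 and 0.995). Of the genes named here, *Dgka* and *Rfx2* passed both cut-offs.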

How the data were processed

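PolyA-selected RNA from somatosensory cortex was sequenced as directional libraries. Per the paper and the labels, the authors aligned reads to mm9 with TopHat and Bowtie and counted genes with HTSeq and a UCSC annotation. The deposited values, 1 table for each of 6 mice, are RPKM made by the authors. In these tables the reads of a gene were divided by lengths that repeat in a cycle of 65 to 296 lengths over genes sorted by NCBI gene ID as text, so that the length behind a gene differs between mice (for *Sstr1* from 5352 to 952049 bases). Whole reads and totals were recovered from these steps. All values above 0 came out whole within their printed precision, 3 of them were left without a count, and the recovered reads summed to 99.99% of the totals. The 92 rows with no gene name, 0.0575% to 0.0853% of the reads, were left out. No column of values was left unused.

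Reads were divided by the total to give CPM. Genes with CPM above 0.5 in every mouse of a genotype were fitted as log2(CPM + 0.1) with limma 3.58.1 in R 4.3.3 (lmFit, eBayes with a variance trend), with Benjamini-Hochberg adjustment over all tested genes; fold changes on this scale understate those of low genes. The fit used log2 CPM from the recovered reads, not the deposited RPKM, and no count model was tried. The cut-offs are those of the study, which applied them to the results of a different test. Tables and figures were made with Python 3.11.15, numpy 2.4.6, pandas 2.3.3, scipy 1.17.1 and matplotlib 3.10.9. Genes named are the members, the ligand genes, *Mef2c*, at most 3 called genes per pathway list by fold change, at most 2 genes per marker list by level and the 3 genes most like each of 3 members, and other names were chosen after their values were seen. Some results under this rule are not reported here. The members and lists were chosen with earlier results of these data known. Recovery and fit were tested on simulated data. Totals of 19326365 to 54128334 reads set the counting error. Each library is from a separate animal, per the paper. An exact permutation test of 3 against 3 cannot go below p = 0.100 and was not used. Coordinates and exon lengths are those of gencode vM1 on NCBIM37 (mm9), not the annotation of the authors. Alternatives were other pseudocounts, filters, scalings, cut-offs, a replicate block, an age term, leaving out each mouse and the deposited RPKM.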

Additional observations from a re-analysis of the deposited data

How the results depend on the processing

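The comparison gave 1997 genes past the cut-offs and 4 receptors. Both counts stayed within 1.5 times of these under other pseudocounts, filters, scalings, no variance trend, an age term and no fold cut-off, and without single mice gave 1657 to 1869 genes and 3 to 4 receptors. With a log2 cut-off of 1 there were 472 genes and 1 receptor, *Oprk1*. With no variance trend the calls of *Oprk1*, *Sst* and *Npy* were lost (adjusted p = 0.055, 0.095 and 0.072). Taken as they stand, the deposited RPKM values gave 14 genes and 0 receptors, with 3 of the 10 receptors past the filter and log2 fold changes of -2.71 for *Sstr1*, -1.38 for *Sst* and -0.17 for *Npy*, since the lengths behind them differ between mice. Leaving out single mice gave ranges that cross 0 for *Oprl1* (-0.15 to 0.04), *Oprm1* (-0.06 to 0.16), *Sstr2* (-0.16 to 0.01) and *Cort* (-0.29 to 0.41), none of which passed. With the replicate number as a block there were 1695 genes and the same 4 receptors, while *Sst* and *Npy* missed the threshold (adjusted p = 0.059 and 0.058). Deviations of same-numbered mice from the mean of their genotype correlated at -0.176, -0.109 and -0.082, and the mean between different numbers was 0.061. Since the deviations cancel out within a genotype, that mean follows from the same-number values and is not a separate comparison. This check gives no pairing of the mice by number. The fewest reads of a receptor in a mouse were 52, for *Npy2r*, so its levels carry a larger relative counting error than those of the other receptors. The causes of other moved values were not tested.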

Other observations

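Changes were also seen among receptors for other neuropeptides. Of 36 such genes in a list outside the opioid, somatostatin and NPY families, 23 were tested, 8 rose and 4 fell. Over all tested genes, 5.88% passed as higher and 7.77% as lower. The median log2 fold change of the list was 0.08, against 0.008 over all tested genes. *Rxfp1*, a relaxin receptor gene, was at 15 to 19.1 CPM in the controls and 119 to 152 CPM in the *Mef2c* cKO mice (log2 fold change 2.98, limma adjusted p = 1.8e-06). *Mc4r*, the melanocortin 4 receptor gene, was at 0.407 to 0.823 CPM and 4.19 to 9.66 CPM (log2 fold change 3.39, limma adjusted p = 1.4e-04). Its control levels rest on 21 to 28 reads per mouse, and it passed the filter on low values only through the cKO mice. *Trhr2*, a receptor gene for thyrotropin-releasing hormone, was at 4.17 to 4.70 CPM and 0.641 to 1.19 CPM (log2 fold change -2.19, limma adjusted p = 1.5e-04).

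Of 6 oligodendrocyte markers 1, *Mobp*, rose, and their summed level was 3105 to 5132 CPM in the controls and 5043 to 6470 CPM in the *Mef2c* cKO mice. Its part in the receptor values was not tested.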
